A study of Mus musculus with 10 samples.

Results

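The synaptic vesicle fusion machinery is described here as the genes whose symbols belong to the synaptotagmin (*Syt*), syntaxin (*Stx*), syntaxin-binding protein (*Stxbp*), *Vamp*, *Snap*, *Unc13*, *Rims* and complexin (*Cplx*) series, chosen by symbol alone. There were 63 such genes among the 24453 genes of the count table. They were measured by RNA-seq in intratelencephalic projection neurons (IT-PNs) sorted from layer 5 of the right primary motor cortex (M1). Each of 5 animals gave a *Fezf2+ve* and a *Fezf2−ve* library, 10 libraries in all. All animals were male mice of the *Fezf2-Gfp* reporter line, (Zfp312-EGFP)CO61GsatMmnc, hemizygous for the transgene and of Swiss Webster background. They carried the same retrograde tracer, cholera toxin subunit B (CTB) coupled to a far-red dye, injected into the left M1 at postnatal day 23 to 25. Cells were sorted at postnatal day 28 to 32. *Fezf2+ve* IT-PNs were sorted for GFP together with CTB and *Fezf2−ve* IT-PNs for CTB without GFP, so the types differ in reporter fluorescence and were not defined by the *Fezf2* transcript. Library preparation used several rounds of amplification of small amounts of RNA.

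In neurons, a synaptic vesicle fuses with the plasma membrane when the vesicle SNARE protein synaptobrevin (*Vamp1*, *Vamp2*) zips together with the plasma membrane SNAREs syntaxin-1 (*Stx1a*) and SNAP-25 (*Snap25*). Munc13 proteins (*Unc13a*, *Unc13b*, *Unc13c*) prepare the assembly of this complex, RIM proteins (*Rims1*, *Rims2*) hold the release site together, and complexins with synaptotagmins (*Syt1* and its relatives) couple fusion to calcium. The same gene series also holds SNAREs of the endosome, Golgi and endoplasmic reticulum, which serve membrane traffic in all cells, and *Snap91*, which shares the symbol but encodes a clathrin assembly protein.

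Between 89138 and 217738 reads were counted on genes per library, and at this depth 3 reads, taken as the floor, lay at 13.8 to 33.7 CPM (counts scaled to a common library total). No molecular identifiers are named, so amplified reads can be copies of 1 molecule, and floors and intervals cover counting error only. *Fezf2+ve* library 1 stood apart from the others. The ERCC spike-in RNAs took 46.7% of its gene and spike-in reads, against 2.79 to 27.1% in the other 9 libraries, and 35201 of its 118134 gene reads fell on *Sema6a*.

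The markers of the sorted cells were sparse. The 7 pyramidal neuron markers had 34, 10, 14, 0 and 7 reads in *Fezf2+ve* libraries 1 to 5 and 11, 4, 552, 8 and 3 reads in *Fezf2−ve* libraries 1 to 5, and *Camk2a* gave 529 of the 552 reads of the third *Fezf2−ve* library. *Slc17a7*, the vesicular glutamate transporter of cortical pyramidal neurons, had 11 reads over all libraries, *Tbr1* had 0 and *Fezf2* itself had 1. The pyramidal identity given by the tracer and sort was therefore hardly visible in these markers at this depth. The paper gives other evidence on the sort. Its RT-PCR found endogenous *Fezf2* in the *Fezf2+ve* fractions and not in the *Fezf2−ve* fractions. It also reports terms for neuronal processes among the most expressed genes.

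Markers of other cell types were present. The 12 microglia markers had 30, 19, 11, 10 and 25 reads in *Fezf2+ve* libraries 1 to 5 and 1078, 413, 1154, 348 and 864 reads in *Fezf2−ve* libraries 1 to 5. All *Fezf2−ve* libraries lay above all *Fezf2+ve* libraries. All 12 markers had reads, the most abundant was *Ctss* with 817, and the fitted log2 fold change was below 0 for all 12 and had an unadjusted p under 0.05 for 10 of them (2.27% of all tested genes in that direction), although 0 passed the adjusted threshold in the fit with the animal as a block. Without the block 10 of the 12 passed, where 3.77% of all tested genes did, and 9 passed in DESeq2 with the block, where 1.32% did. The 6 oligodendrocyte markers summed to 1371 reads in *Fezf2+ve* and 543 in *Fezf2−ve* libraries, of which *Fezf2+ve* library 2 held 1125. The 6 astrocyte markers (*Slc1a2* most abundant, *Gfap* at 0) summed to 1328 and 966 reads, with 819 in *Fezf2+ve* library 2 and 803 in *Fezf2−ve* library 4. The 2 oligodendrocyte precursor markers summed to 531 and 451 reads and the 3 endothelial markers to 21 and 21. The 6 interneuron markers summed to 1 and 10 reads, with *Slc32a1*, *Pvalb* and *Vip* at 0. Fewer cells of a type and less RNA per cell cannot be told apart in these sorted pools. Which cells the reads on these marker genes came from was not tested, and neither was their part in the differences described next.

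**Figure D1:**
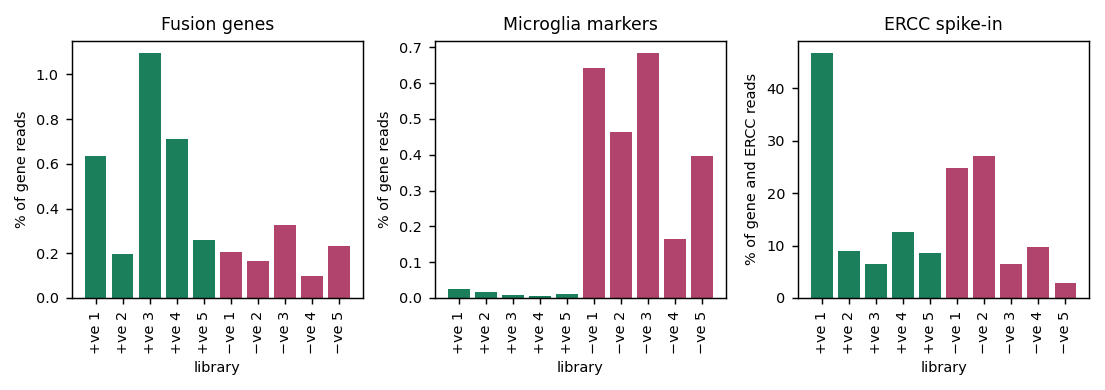
Share of reads in each library on the 63 fusion genes and on the 12 microglia markers (% of gene reads), and on the ERCC spike-in (% of gene and ERCC reads), with green bars for Fezf2+ve and red bars for Fezf2−ve libraries of animals 1 to 5. Microglia markers took at most 0.0254% in Fezf2+ve and at least 0.165% in Fezf2−ve libraries. The fusion genes overlapped between the types, although Fezf2+ve exceeded Fezf2−ve in each of the 5 animals. Animal 2 went the other way with the 10 most-read genes of each library left out of the denominator (not drawn).

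In *Fezf2+ve* libraries the fusion genes took 0.58% ± 0.366 (SD, n = 5) of the gene reads. Their share of the *Fezf2−ve* libraries was 0.205% ± 0.0843 (SD, n = 5). The lowest share was 0.0965% in *Fezf2−ve* library 4 (95% Wilson interval 0.0842 to 0.111%) and the highest was 1.1% in *Fezf2+ve* library 3 (1.04 to 1.16%). In each of the 5 animals the *Fezf2+ve* share exceeded the *Fezf2−ve* share, by little in animals 2 (0.198% against 0.167%) and 5 (0.257% against 0.234%). Animal 2 went the other way (0.261% against 0.304%) with the 10 most-read genes of each library left out of the denominator. Across animals the ranges overlapped, since *Fezf2+ve* libraries 2 and 5 had 0.198% and 0.257%, and *Fezf2−ve* library 3 had 0.325%. A single gene gave most of the reads in several libraries, as *Stxbp5* did with 1021 of 1294 member reads in *Fezf2+ve* library 3 and 1022 of 1080 in *Fezf2+ve* library 4, *Stx17* with 571 of 749 in *Fezf2+ve* library 1, and *Stxbp3* with 394 of 510 in *Fezf2−ve* library 5. Without the top member of each library, the members took 0.133% ± 0.0772 (SD, n = 5) of the *Fezf2+ve* gene reads, with a range of 0.0383 to 0.231%. The same share of the *Fezf2−ve* gene reads was 0.0838% ± 0.032 (SD, n = 5), with a range of 0.0533 to 0.121%, so the types overlapped. Here *Fezf2+ve* exceeded *Fezf2−ve* in 4 of 5 animals and was lower in animal 4 (0.0383% against 0.0658%).

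Of the 63 members, 5 (*Cplx4*, *Stx11*, *Stx19*, *Syt8* and *Vamp7*) had 0 reads in every library and 4 had reads in all 10. Between 26 and 40 members were detected with at least 1 read in a *Fezf2+ve* library and between 26 and 36 in a *Fezf2−ve* library. The 6 members with the most reads held 78.7% of the 5612 member reads, and 26 members had at most 10 reads in all. Reads of a gene were often gathered in 1 library. Among the 29 members with at least 20 reads, the library with the most reads held a median of 45.3% of them, and over 50% for 12 members. Over all 4482 genes with at least 20 reads this median was 55.2%, so such gathering was found throughout the table.

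**Figure D2:**
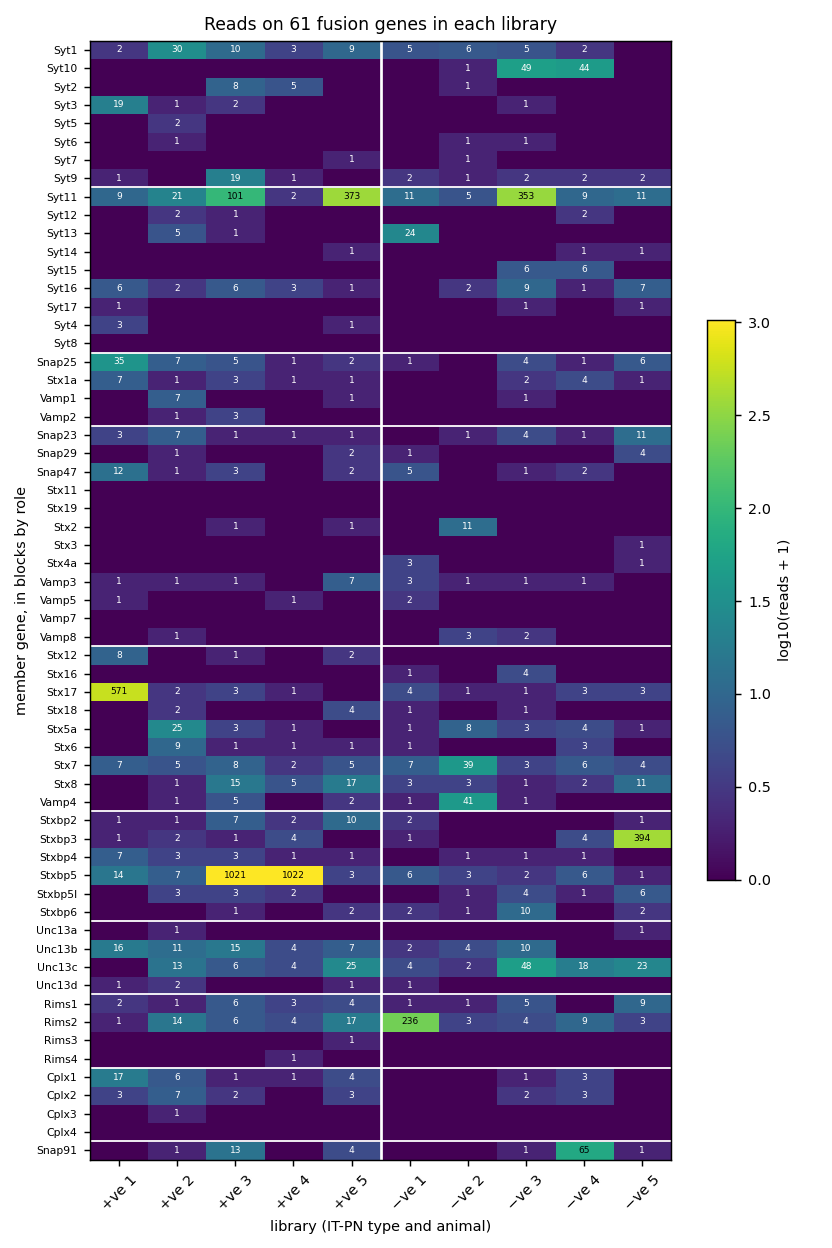
Reads counted on 61 of the 63 members (rows, in blocks by role) in each library (columns, type and animal), coloured by log10(reads + 1), with the number of reads printed where it is above 0. Most cells hold few reads, and single bright cells such as 1021 and 1022 reads of Stxbp5 or 571 of Stx17 hold most reads of their gene.

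Which members differed between the types was asked with edgeR's quasi-likelihood test over all genes, blocked by animal. Among the 63 members, 37 passed the filter of at least 10 CPM in at least 2 libraries, and the 26 others, with at most 13 reads each, were not tested. With edgeR, 0 of the 37 members were called at a Benjamini-Hochberg adjusted p of at most 0.1, and so were 0 of all 7409 tested genes (0%). At an unadjusted p under 0.05, 2 members (*Stxbp5* and *Unc13b*) were higher in *Fezf2+ve* IT-PNs, where 1.62% of all tested genes were, and 1 (*Syt10*) was higher in *Fezf2−ve* IT-PNs, where 2.27% of all tested genes were. None of the 3 kept this in every fit. *Stxbp5* had a p under 0.05 in 0 of the 5 fits that left out an animal, *Unc13b* in those without animal 2 or 3 only, and *Syt10* in all but the fit without animal 3. *Unc13b* also had a p of 0.121 without the block.

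Without the block edgeR called 3 members (*Stx17*, *Stxbp5* and *Syt10*) among 279 genes, or 3.77% of those tested, and for all 3 members the reads lay almost wholly in 1 or 2 libraries of a type. These calls lay close to the threshold. With robust dispersions, an alternative chosen after seeing the data, the smallest adjusted p without the block moved from 0.0931 to 0.105, so 0 genes and 0 members were called, while the log2 fold changes of *Stxbp5* (7.31) and *Stx17* (5.93) stayed the same and 7 members kept an unadjusted p under 0.05. Without the block, at an unadjusted p under 0.05, 4 members were higher in *Fezf2+ve* IT-PNs (8.17% of all genes) and 3 in *Fezf2−ve* IT-PNs (9.99% of all genes). DESeq2 with the block called 1 member, *Stxbp5*, among 98 genes (1.32%). It gave 2 members an unadjusted p under 0.05 in the *Fezf2+ve* direction (1.84% of all genes) and 0 in the *Fezf2−ve* direction (2.24% of all genes).

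The fitted log2 fold change, *Fezf2+ve* over *Fezf2−ve*, was above 0 for 26 of the 37 tested members, against 45.7% of all tested genes. Its median was 0.63 over the members and -0.16 over all tested genes. The 2 tested members with 0 reads in a type, *Syt10* and *Syt15*, lay below the members' median. They also did so when set to their bound, or to 0 where there was none, so this replacement could not move the median. The microglia markers moved the other way in the same libraries, with a median of -4.83, and whether the 2 shifts are linked was not tested.

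**Figure D3:**
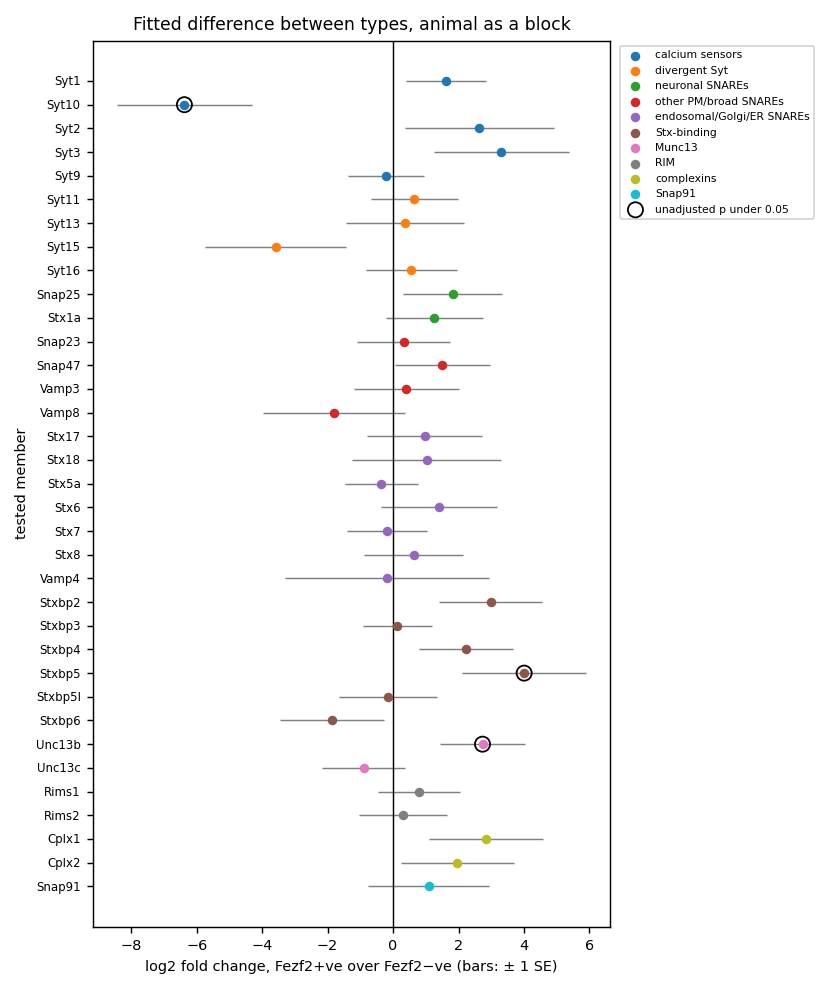
Fitted log2 fold change (Fezf2+ve over Fezf2−ve, bars ± 1 standard error) of 35 of the 37 tested members, coloured by role, with a ring around the 3 members with an unadjusted p under 0.05. Standard errors were derived from the log2 fold change and the F statistic of the edgeR test. Points lie above 0 for 25 of these members, and 0 members passed the adjusted threshold.

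The neuronal SNAREs that carry out fusion were near the floor. *Snap25*, whose protein is a plasma membrane SNARE, had 35, 7, 5, 1 and 2 reads in *Fezf2+ve* libraries 1 to 5 and 1, 0, 4, 1 and 6 reads in *Fezf2−ve* libraries 1 to 5. The first *Fezf2+ve* library was high and the types overlapped. Its level as TMM-normalized log2(CPM + 1) was 5.25 ± 1.83 (SD, n = 5) in the former type against 3.04 ± 1.96 (SD, n = 5) in the latter, with a log2 fold change of 1.83 ± 1.51 (SE) that was 0.82 without animal 1. *Stx1a* had 7, 1, 3, 1 and 1 reads in *Fezf2+ve* and 0, 0, 2, 4 and 1 reads in *Fezf2−ve* libraries, and the types overlapped. *Vamp1* had 8 reads in *Fezf2+ve* libraries, 7 of them in library 2, and 1 in *Fezf2−ve* libraries, a ratio of pooled reads per total of 9.79 (95% exact interval 1.31 to 434) that was 1.45 (0.0184 to 114) without that library. *Vamp2*, the main synaptobrevin of forebrain neurons, had 1 and 3 reads in *Fezf2+ve* libraries 2 and 3 and 0 in the other 8 libraries, which is at or under the floor in both types. Counts were not scaled by gene span, which is 3.85 kb for *Vamp2* and 6.73 kb for *Vamp1*, against 513 kb for *Syt1*.

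Among the calcium sensors, *Syt1*, the sensor of fast transmitter release, had 2, 30, 10, 3 and 9 reads in *Fezf2+ve* libraries 1 to 5 and 5, 6, 5, 2 and 0 reads in *Fezf2−ve* libraries 1 to 5. It was higher in the *Fezf2+ve* library of 4 of 5 animals, the types overlapped, and the log2 fold change was 1.62 ± 1.22 (SE), or 0.949 without animal 5. *Syt7*, a slower and more sensitive calcium sensor, had 1 read in each type. *Syt10*, a synaptotagmin linked to secretion of growth factor from neurons, had 0 reads in all 5 *Fezf2+ve* libraries and 0, 1, 49, 44 and 0 reads in *Fezf2−ve* libraries 1 to 5. The reads lay in the *Fezf2−ve* libraries of animals 3 and 4, and the types overlapped at 0. Against a floor of 3 reads per *Fezf2+ve* library, the mean CPM of the *Fezf2−ve* libraries was at least 4.5-fold higher, a bound that describes those 2 libraries more than the type, and the edgeR unadjusted p was 0.00879. *Syt3* had 19, 1, 2, 0 and 0 reads in *Fezf2+ve* libraries and 1 read in *Fezf2−ve* library 3, a pooled ratio of 26.9 (95% exact interval 4.35 to 1110) that rests on *Fezf2+ve* library 1, since without it the ratio was 4.42 (0.355 to 232). Its span overlaps *1700008O03Rik*, which had 1 read in all.

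Among the divergent synaptotagmins, *Syt11*, which does not bind calcium, had 9, 21, 101, 2 and 373 reads in *Fezf2+ve* libraries 1 to 5 and 11, 5, 353, 9 and 11 reads in *Fezf2−ve* libraries 1 to 5. One or more libraries of each type were high and the types overlapped, with a log2 fold change of 0.65 ± 1.34 (SE). *Syt15* had 6 and 6 reads in *Fezf2−ve* libraries 3 and 4, the libraries that also held the *Syt10* reads, and 0 in the other 8. Its mean CPM in *Fezf2−ve* IT-PNs was under that of the floor, and no fold is given.

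**Figure D4:**
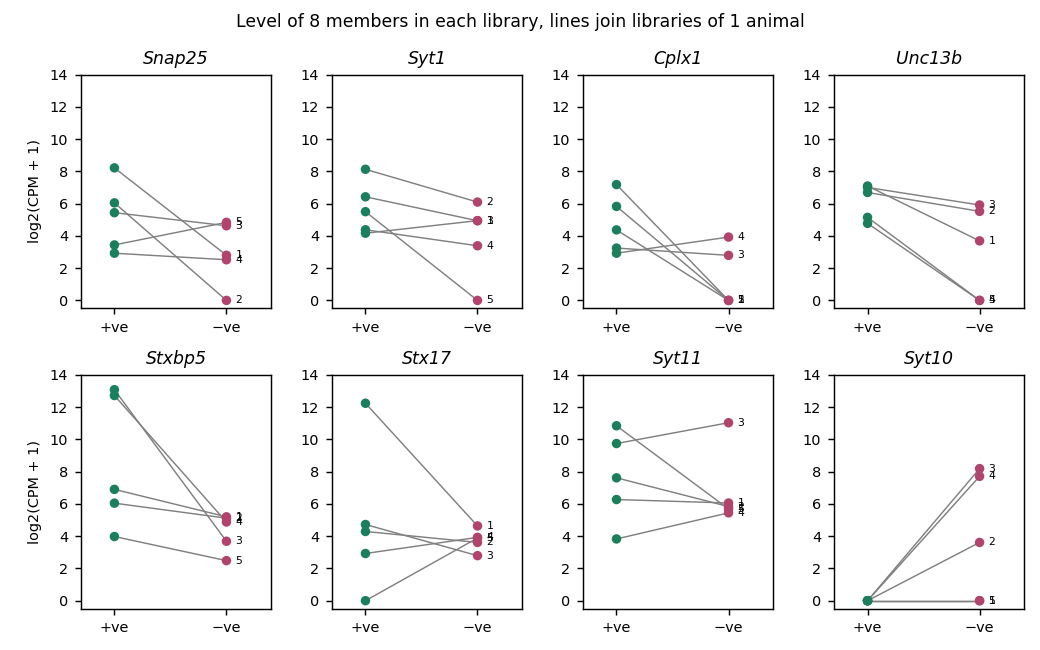
Level of 8 members as log2(CPM + 1) in each library, with lines joining the Fezf2+ve (green) and Fezf2−ve (red) libraries of animals 1 to 5. Unc13b and Stxbp5 were higher in the Fezf2+ve library of all 5 animals, and Syt10 was at 0 in all 5 Fezf2+ve libraries.

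The syntaxin-binding proteins held the gene with the most reads of all members. *Stxbp5* encodes tomosyn, which occupies plasma membrane SNAREs and restrains fusion. It lies on chromosome 10 (chr10:9755547-9901287, GRCm38) and had 14, 7, 1021, 1022 and 3 reads in *Fezf2+ve* libraries 1 to 5 and 6, 3, 2, 6 and 1 reads in *Fezf2−ve* libraries 1 to 5. Its CPM was higher in the *Fezf2+ve* library of 5 of 5 animals, but 2 *Fezf2+ve* libraries held nearly all of the reads, and *Fezf2+ve* library 5 lay within the range of the *Fezf2−ve* libraries. The level was 8.6 ± 4.27 (SD, n = 5) against 4.28 ± 1.18 (SD, n = 5). The log2 fold change was 4.00 ± 1.90 (SE) with the block, where edgeR's Benjamini-Hochberg adjusted p was 0.998, and 7.31 without the block, where it was 0.0931. DESeq2 with the block gave 3.83 with an adjusted p of 0.0935.

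*Stxbp2*, which serves granule secretion outside the synapse, had 1, 1, 7, 2 and 10 reads in *Fezf2+ve* libraries against 2, 0, 0, 0 and 1 reads in *Fezf2−ve* libraries, a pooled ratio of 8.56 (95% exact interval 2.56 to 44.8), and was higher in the *Fezf2+ve* library of 4 of 5 animals. *Stxbp3* had 1, 2, 1, 4 and 0 reads against 1, 0, 0, 4 and 394 reads. Apart from the 394 reads of *Fezf2−ve* library 5 both types were near the floor, and the log2 fold change was 0.13 with the block and -4.86 without it. *Stxbp6*, the SNARE-binding protein amisyn, had 0, 0, 1, 0 and 2 reads against 2, 1, 10, 0 and 2 reads, a pooled ratio of 0.245 (95% exact interval 0.0454 to 0.865). It rests on *Fezf2−ve* library 3, which held 10 of the 15 reads of its type, and without that library the ratio was 0.589 (0.0915 to 3.03).

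Of the Munc13 priming factors, *Unc13b* (chr4:43046193-43264873, GRCm38), which encodes Munc13-2, had 16, 11, 15, 4 and 7 reads in *Fezf2+ve* libraries 1 to 5 and 2, 4, 10, 0 and 0 reads in *Fezf2−ve* libraries 1 to 5. Its reads were spread over all 5 *Fezf2+ve* libraries, unlike those of *Stxbp5*, and its level was higher in the *Fezf2+ve* library of 5 of 5 animals. In CPM the types overlapped, as *Fezf2+ve* libraries 4 and 5 had 26.4 and 34.4 and *Fezf2−ve* libraries 2 and 3 had 44.9 and 59.3. The level was 6.20 ± 0.69 (SD, n = 5) against 2.85 ± 2.72 (SD, n = 5) and the log2 fold change was 2.73 ± 1.29 (SE), with an edgeR adjusted p of 0.998. The span of *Unc13b* overlaps at 1 end with that of *Fam214b*, which ends at chr4:43046220. *Fam214b* had 31 reads in *Fezf2+ve* library 5, 2 in *Fezf2−ve* library 1 and 0 elsewhere. Shared reads could thus affect the *Unc13b* count in those libraries only. *Unc13c*, encoding Munc13-3, had 0, 13, 6, 4 and 25 reads against 4, 2, 48, 18 and 23 reads, with wide overlap. *Unc13a*, encoding Munc13-1 of most forebrain synapses, had 1 read in each type, and overlaps *Colgalt1*, which had 1 to 3 reads in 5 libraries.

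The RIM genes did not separate the types. *Rims1* had 2, 1, 6, 3 and 4 reads against 1, 1, 5, 0 and 9 reads. *Rims2* had 1, 14, 6, 4 and 17 reads against 236, 3, 4, 9 and 3 reads, so 1 *Fezf2−ve* library held most of its reads. The log2 fold change of *Rims2* was 0.31 with the block and -2.17 without it. Complexins, which clamp and then promote fusion, had 20, 14, 3, 1 and 7 reads in *Fezf2+ve* libraries and 0, 0, 3, 6 and 0 reads in *Fezf2−ve* libraries, so animal 3 had the same number in both and animal 4 more in its *Fezf2−ve* library. *Cplx1* had 17, 6, 1, 1 and 4 reads against 0, 0, 1, 3 and 0 reads, was higher in the *Fezf2+ve* library of 4 of 5 animals, and had a log2 fold change of 2.84 ± 1.75 (SE), which was 1.79 without animal 1 and 4.19 without animal 4. *Cplx2* had 3, 7, 2, 0 and 3 reads against 0, 0, 2, 3 and 0 reads, with a log2 fold change of 1.97 ± 1.72 (SE), which was 1.31 without animal 2 and 3.21 without animal 4. Both complexins overlapped between the types and neither was called in the fits with the block.

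Among the SNAREs of other membranes, *Stx17*, a syntaxin of autophagosomes, had 571, 2, 3, 1 and 0 reads in *Fezf2+ve* and 4, 1, 1, 3 and 3 reads in *Fezf2−ve* libraries. Apart from *Fezf2+ve* library 1, the library with the largest spike-in share, the types overlapped near the floor, and the log2 fold change was 0.96 ± 1.75 (SE) with the block and 5.93 without it. *Stx7*, an endosomal syntaxin, had reads in all 10 libraries, with 7, 5, 8, 2 and 5 against 7, 39, 3, 6 and 4, and a log2 fold change of -0.18 ± 1.22 (SE). *Vamp8* had 1 read in *Fezf2+ve* and at most 3 reads in any *Fezf2−ve* library, at or under the floor in both. *Snap91*, the clathrin assembly protein AP180, had 0, 1, 13, 0 and 4 reads against 0, 0, 1, 65 and 1 reads.

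Other genes of the release pathway behaved likewise. With edgeR and the block, 0 of the 17 tested active zone partners, 0 of the 3 tested SNARE disassembly genes, 0 of the 13 tested synaptic vesicle protein genes and 0 of the 12 tested vesicle recycling genes were called. At an unadjusted p under 0.05, 1 active zone partner (*Bzrap1*), 1 SNARE disassembly gene (*Napg*) and 1 synaptic vesicle gene (*Dnajc5*) were higher in *Fezf2+ve* IT-PNs (1.62% of all tested genes), and 0 of these lists' genes were higher in *Fezf2−ve* IT-PNs (2.27% of all tested genes). The fit without the block called 1 active zone partner and 1 vesicle recycling gene (3.77% of all tested genes), and DESeq2 with the block called 1 active zone partner (1.32% of all tested genes). The median log2 fold change was 0.08 for active zone partners, 1.78 for SNARE disassembly, 1.05 for synaptic vesicle proteins and -0.66 for vesicle recycling, so the lists did not share 1 direction. Reads of these lists were gathered in few libraries too, with 2901 of the 3115 *Cask* reads, 1483 of the 1516 *Atp6v0a1* reads and 3976 of the 4650 *Picalm* reads in *Fezf2−ve* library 5.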

How the data were processed

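Per the labels and the study's methods, trimmed reads were aligned to mm10 by the authors using TopHat2 2.1.1 and counted on RefFlat genes by bedtools 2.26.0, and they deposited gene and ERCC read counts without normalization. This counting can assign a read to every gene it overlaps, and the use of strand is not given in the sources used here. The paper reports a high share of intronic reads in both types. In *Fezf2−ve* library 1 the gene reads (167916) exceeded the number it gives as mapped to mm10. The counts thus appear to include intronic reads, and they were not scaled by gene span, so counts of different genes are not directly comparable. A deposited table of the authors' own comparison was not used. Counts were tested in R 4.3.3 with edgeR 4.0.16 (TMM, quasi-likelihood, library totals over the tested genes) and DESeq2 1.42.0, with Python 3.11.15 for other steps. The standard errors (SE) given for edgeR were derived as the absolute log2 fold change over the square root of the test's F statistic. They are approximate, above all where the log2 fold change is near 0. Types were paired by animal, since both were sorted from the same animal, although deviations from the type means correlated by only -0.0267 to 0.097 within animals. A first fit, with edgeR's legacy method and totals over all genes, was replaced after its results had been seen by the method used for the whole series. That fit, the other combinations of these settings and robust dispersions, each with or without the block, are given as alternatives chosen after seeing the data, as are ratios of pooled reads without the library that held the most reads of a gene. Members and lists were chosen with earlier results of these data known. The members named were 12 core neuronal genes, the 10 with the most reads, the 5 with the smallest unadjusted p in each direction, and those called by edgeR with or without the block or by DESeq2 with the block. Other genes were named after their values were seen, and the results of some genes are not reported here. Positions are those of RefSeq on GRCm38, found for all 63 members.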

Additional observations from a re-analysis of the deposited data

Results flagged for a closer look

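In 21 of 84 groups of 5 libraries 1 library lay far from the other 4, where chance gives about 1 in 20 for normally distributed values. Whether these values were normally distributed was not tested, and skewed values can exceed that rate. That rate does not apply to 9 of the 21, in which 4 libraries were at 0 and the other had a single read, so that any read sets the library apart. Of the 21, 9 concern the log2(CPM + 1) level of a single member. In *Fezf2−ve* library 3 the level of *Syt11* was 10.75, from 353 reads. A single read set the level apart for *Syt7* (2.83 in *Fezf2+ve* library 5 and 3.27 in *Fezf2−ve* library 2), *Unc13a* (2.92 in *Fezf2+ve* library 2 and 2.71 in *Fezf2−ve* library 5), *Vamp8* (2.92 in *Fezf2+ve* library 2), *Syt3* (2.55 in *Fezf2−ve* library 3) and *Vamp1* (2.55 in *Fezf2−ve* library 3). *Unc13c* was at 0 in *Fezf2+ve* library 1.

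The ERCC share of 46.7% in *Fezf2+ve* library 1 was far above the other *Fezf2+ve* libraries. In shares of gene reads, vesicle recycling genes stood apart with 0.898% in *Fezf2+ve* library 3 and 2.22% in *Fezf2−ve* library 5, which also had 1.38% on active zone partners and 0.708% on synaptic vesicle proteins. Pyramidal neuron markers took 0.327% in *Fezf2−ve* library 3. Oligodendrocyte markers took 1.05% in *Fezf2+ve* library 2 and 0.202% in *Fezf2−ve* library 1, and astrocyte markers took 0.761% in *Fezf2+ve* library 2 and 0.38% in *Fezf2−ve* library 4. Interneuron markers and *Fezf2* each had 1 read, or 0.000492%, in *Fezf2+ve* library 5 and 0 in the other *Fezf2+ve* libraries.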

How the results depend on the processing

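With the animal as a block, edgeR called 0 genes and 0 members under TMM or DESeq2 size factors, without a filter, and without any 1 animal. Without the replicate block it called 279 genes and 3 members, and 7 members had an unadjusted p under 0.05. DESeq2 with the block called 98 genes and 1 member. The stricter filter left 10 members to test, called 9 genes and 0 members, and gave 1 of the 10 an unadjusted p under 0.05. Leaving out each animal gave 1 to 2 such members among 32 to 36 tested, against 3 among 37 with all animals. *Stxbp5* was among them in none of these fits nor with DESeq2 size factors, and *Stxbp2* entered without animal 1. The cause of these differences was not tested.

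Among the alternatives chosen after seeing the data, the legacy method, with totals over tested or over all genes, left 1 member with an unadjusted p under 0.05, also with robust dispersions. All of these fits with the block called 0 genes. Without the replicate block, the legacy method called 638 genes with totals over tested and 646 with totals over all genes, with 5 members called and 9 under 0.05 in each. The current method with totals over all genes called 279 genes and 3 members, with 7 under 0.05, and robust dispersions called 0 of both, with 7 under 0.05. Robust dispersions with the legacy method called 40 genes and 1 member, with 9 under 0.05. Calls without the block thus ranged from 0 to 646 genes.

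Without the block the log2 fold change turned to -2.17 for *Rims2* (-2.16 with the legacy method or totals over all genes), to -2.03 for *Snap91* (-2.01 legacy, -2.08 with totals over all genes, -2.07 with both) and to -4.86 for *Stxbp3* (-4.87 legacy), with robust dispersions as without them. Without a filter *Stxbp3* turned to -0.35. Leaving out an animal turned the sign of 6 named members, with ranges of -0.54 to 1.19 for *Rims2*, -0.44 to 2.85 for *Snap91*, -0.37 to 1.94 for *Stx17*, -0.76 to 0.50 for *Stx7*, -0.47 to 1.39 for *Stxbp3* and -0.29 to 1.25 for *Syt11*. *Stxbp5* ranged from 2.57 to 5.35 and *Unc13b* from 2.25 to 3.38.

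With the 10 most-read genes of each library left out of the denominator, the members' mean share was 0.949% in *Fezf2+ve* and 0.279% in *Fezf2−ve* libraries. In animal 2 the share was then lower in the *Fezf2+ve* library (0.261%) than in the *Fezf2−ve* library (0.304%), so *Fezf2+ve* no longer exceeded *Fezf2−ve* in every animal. Thinned to 89138 reads, 27.8 members were detected per *Fezf2+ve* library on average, against 32.8 at full depth, and 22.8 per *Fezf2−ve* library, against 29.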
